A study of Mus musculus with 23 samples.

Results

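The comparison described here set the RNA contacts of a CTCF lacking part of its first zinc finger (ΔZF1) against those of wild-type (WT) CTCF in neural progenitor cells (NPCs). It drew on 7 of the 23 libraries of the study, 3 from WT and 4 from ΔZF1, which had been merged by genotype into 1 list of crosslink sites each. The 4 libraries of NPCs that saw no ultraviolet light (noXL), also merged, gave the background. Every group descended from E14 mouse embryonic stem cells (ESCs) in which the endogenous CTCF carries the AID2 degron, and each group, noXL included, received 1 μM 5-Ph-IAA to remove that protein and 1 μg/mL doxycycline to switch on a Flag-Halo-tagged rescue CTCF for 24 h. NPCs had spent 2 days in N2B27 medium on laminin. WT and ΔZF1 cells were irradiated with 400 mJ/cm2, and rescue CTCF was pulled from nuclear lysate with anti-Flag beads before the attached RNA was sequenced by iCLIP2. Each rescue genotype was 1 clonal line, the same in ESCs and NPCs, and noXL came from the WT line only, so the ΔZF1 line had no unirradiated control.

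CTCF is a DNA-binding protein with a row of zinc fingers. Together with cohesin it holds the bases of chromatin loops, and its first finger is among the parts known to contact RNA. In iCLIP, ultraviolet light joins a protein to the RNA it touches, most readily at uridines, and reverse transcription stops next to the joined base, so a site marks a contact to the nucleotide. Introns are present in nuclear RNA before splicing is complete, whereas exons belong both to the unspliced transcript and to the finished mRNA, so the division of sites between them describes which transcript parts were retrieved.

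A site was given to a gene when it lay in the gene's body on the same strand of GENCODE mm10, and to an exon when any transcript of the basic annotation had an exon there. By this rule 230147 WT sites fell in genes, 158303 on exons and 71844 in introns, and 153211 ΔZF1 sites, 84911 on exons and 68300 in introns. The noXL list had 53577 exon and 48425 intron sites. The WT and ΔZF1 sites together touched 10904 genes. A list grows with sequencing depth as well as with crosslinking, and read depth was not known here. With 1 list for each genotype there was no replicate error and no test between genotypes. All intervals below are 95% intervals that cover counting error only. More RNA of a gene, more cells that express it and more contacts for each RNA cannot be told apart in these bulk lists.

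Marker sites were few, and most neural progenitor markers had none in the WT and ΔZF1 lists. Of 11 neural progenitor markers, 7 had no WT site, 8 no ΔZF1 site and 4 no noXL site. Sox1 and Pax6 had none in WT and ΔZF1, and 2 and 1 in noXL. The list summed to 71 WT, 41 ΔZF1 and 40 noXL sites. Nes, an intermediate filament of neural progenitors, had 28 WT, 32 ΔZF1 and 14 noXL sites. The transcription factors Sox2 and Zic2 had 9 and 21 in WT, 0 and 7 in ΔZF1, and 5 and 6 in noXL. The RNA-binding protein gene Msi1 had 13 in WT, 2 in ΔZF1 and 11 in noXL. The naive stem cell markers had 30, 23 and 17 sites in WT, ΔZF1 and noXL, and 5 formative epiblast markers had 106, 68 and 62, of which Dnmt3b made up 96, 55 and 46. None of 8 mesoderm and endoderm markers had a site in any list, and 5 neuron markers had 10 in WT, 11 in ΔZF1 and 8 in noXL. Ctcf itself (chromosome 8, 105636568 to 105682922, plus strand) had 26 exon sites in WT, 12 in ΔZF1 and 7 in noXL, and 2, 11 and 10 intron sites, and its rescue and endogenous RNA could not be separated.

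The following sequences show the kinds of site behind the comparison. Each is 21 nt of mm10 around the highest-scoring site of its class in the gene, written 5′ to 3′ on the transcribed strand with T for uridine, and the capital marks the crosslinked base. The first set holds ΔZF1 intron sites in some of the genes that added most to the intron share of the mutant list or had the highest intron ratios.

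Ext1 (chr15:53307387-53307407, minus strand): actatgtaatTttaccacata
Jmjd1c (chr10:67252138-67252158, plus strand): ttaataagttTgcccttagtt
Dst (chr1:34238286-34238306, plus strand): gataggccatTttttcctgct
Grip1 (chr10:119529627-119529647, plus strand): atagcttattTggatgtattc
Zfhx3 (chr8:108936829-108936849, plus strand): cccagatccgTgatcccggct
Lgr4 (chr2:110008478-110008498, plus strand): atctttcactCatagaacata
Smyd3 (chr1:179287112-179287132, minus strand): gagtgtttaaCatgttcaggg
Tpd52 (chr3:8941721-8941741, minus strand): ggtgtggaggGacaccccact
Slit3 (chr11:35336759-35336779, plus strand): agatggcttgTgacagtggaa

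The second set holds WT sites of genes with low ΔZF1 counts. Rps6ka6, Meis2 and Hat1 are shown at an intron site, and Itgb1, Mest, Rpn2, Trim28 and P4hb at a coding-exon site.

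Rps6ka6 (chrX:111422062-111422082, minus strand): gggtgggtggGtattagaggc
Meis2 (chr2:115976228-115976248, minus strand): ataacagactTctatccaagc
Hat1 (chr2:71432174-71432194, plus strand): tatgcccattTttatagaagg
Itgb1 (chr8:128705459-128705479, plus strand): gttctgtattTggccaaacag
Mest (chr6:30742729-30742749, plus strand): actccatattTgagcaggcca
Rpn2 (chr2:157320149-157320169, plus strand): acttcacattTgctcctagca
Trim28 (chr7:13030534-13030554, plus strand): cccaggagttTgctcaagatg
P4hb (chr11:120562228-120562248, minus strand): ggtcattgatTacaacggcga

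The coding-exon sites of the second set all sat on a uridine, whereas Lgr4, Smyd3, Tpd52 and Rps6ka6 had their strongest intron site on another base. The first set is a selection. Carm1, Etl4, Lpp, Magi1, Acaca and Itga3, which were not shown, had their strongest ΔZF1 intron site on a base other than uridine. Exoc4, also not shown, had it on a uridine.

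The ΔZF1 list was short of exon sites far more than of intron sites. Among sites in genes, 31.2% of WT sites (31.0 to 31.4), 44.6% of ΔZF1 sites (44.3 to 44.8) and 47.5% of noXL sites (47.2 to 47.8) lay in introns, so that ΔZF1 exceeded WT by 13.4 percentage points (13.0 to 13.7). The ratio of ΔZF1 to WT sites was 0.536 (0.532 to 0.541) on exons and 0.951 (0.941 to 0.961) in introns. Every exonic part had a lower ratio than introns did. The 5′ untranslated region (5′ UTR), read by the scanning ribosome, had 0.398 (0.388 to 0.409), coding exons had 0.529 (0.523 to 0.534) and the 3′ UTR, which carries regulatory elements of an mRNA, had 0.625 (0.615 to 0.636). Exons of noncoding transcripts had 0.608. Relative to noXL, exon sites were 2.95 times as many in WT and 1.58 times in ΔZF1, while intron sites were 1.48 and 1.41 times as many. For the 5′ UTR these ratios were 3.31 and 1.32.

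**Figure D1:**
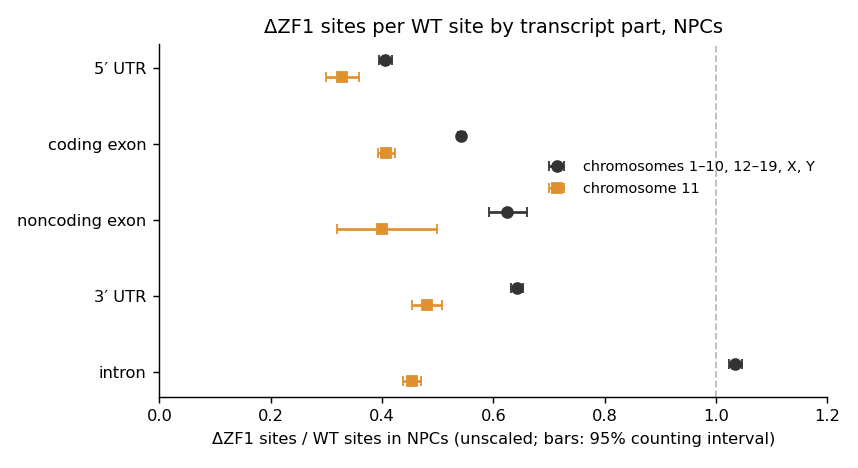
Ratio of ΔZF1 to WT sites by transcript part, off chromosome 11 and on it, with 95% counting intervals. Off chromosome 11 introns had a ratio of 1.03 and coding exons 0.543, while on chromosome 11 introns had 0.453 and coding exons 0.408.

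Base composition separated crosslinked RNA from background in both transcript parts. Uridine was the site base in 64.9% of WT, 57.7% of ΔZF1 and 24.9% of noXL exon sites, and in 64.1%, 60.6% and 31.3% of intron sites. At uridines, exon sites had a ΔZF1 to WT ratio of 0.477 and intron sites 0.899. At the other bases the ratios were 0.646 and 1.04, so the gap between exons and introns was present in each class of base. Uridine sites over noXL numbered 7.69 times in WT and 3.67 times in ΔZF1 on exons, and 3.04 and 2.74 times in introns. Runs of uridine were less frequent in ΔZF1. At least 4 uridines in the 5 nt centred on the site were found at 18.3% of WT, 13.3% of ΔZF1 and 5.31% of noXL intron sites, and at 12.5%, 9.11% and 2.38% of exon sites. The 5-mer UUUUU was centred on 3.83% of WT and 2.14% of ΔZF1 intron sites, against 0.611% in noXL.

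WT sites on exons also lay in clusters more often. Of exon sites, 69.6% in WT and 89.96% in ΔZF1 had no other site of the same list within 8 nt, and in introns 78.7% and 89.87% stood alone, with 94.0% and 92.4% in noXL. The WT list was the longer, and the part of list length in this measure was not tested. When ΔZF1 sites were set against WT positions, 18.9% on exons and 5.94% in introns lay within 5 nt of a WT site, and 31.2% in the 5′ UTR. Within 5 nt of a noXL site lay 5.07% of ΔZF1 exon sites and 2.30% of ΔZF1 intron sites. Of the noXL sites themselves, 14.5% on exons, 4.60% in introns and 35.5% in the 5′ UTR lay within 5 nt of a WT site.

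The site score, a measure of how strongly reads stop at a base, split the genotypes further. In WT the intron share was 41.6% in the lowest of 5 equal score classes and 20.5% in the highest. In ΔZF1 it was 45.6% and 44.3%, and in noXL 45.5% and 49.5%. The strongest ΔZF1 sites were nevertheless rich in uridine, which stood at 62.1% of exon and 61.0% of intron sites of the highest scores, against 24.3% and 29.3% in noXL. Ranks were used because scores depend on the depth of a list.

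**Figure D2:**
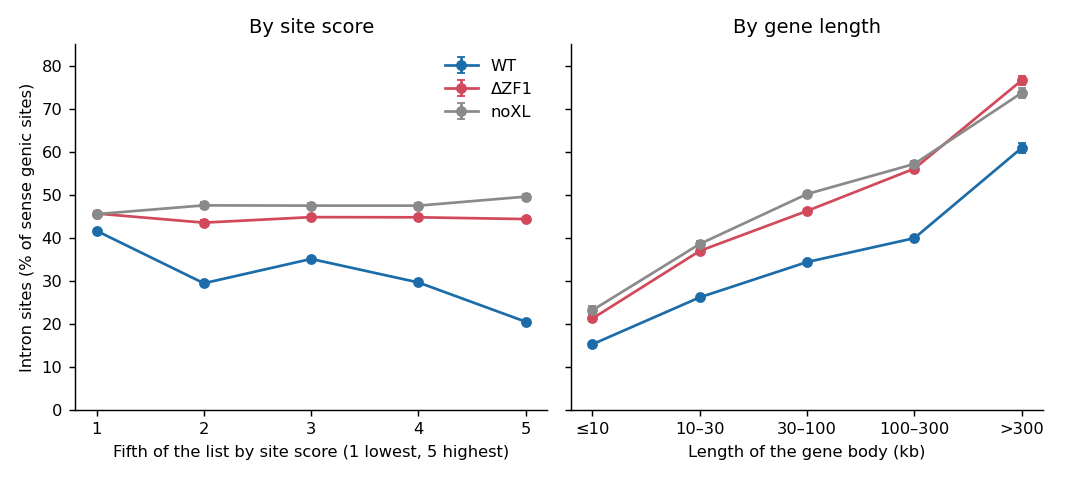
Share of genic sites in introns (%) for WT, ΔZF1 and noXL, by site score in 5 equal classes of each list and by gene length, with 95% counting intervals. The WT share ended at 20.5% in the highest score class where ΔZF1 had 44.3%, and in genes over 300 kb it was 60.8% in WT, 76.5% in ΔZF1 and 73.6% in noXL.

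Ratios were higher far from exons and in long introns. Intron sites over 500 nt from an exon had a ΔZF1 to WT ratio of 1.01 (1.00 to 1.03) and made up 65.8% of WT, 69.6% of ΔZF1 and 71.5% of noXL intron sites. The ratio was 0.860 from 51 to 500 nt, 0.911 within 50 nt of a 5′ splice site and 0.796 within 50 nt of a 3′ splice site, where the polypyrimidine tract lies. It went with intron length, at 0.816 up to 1 kb, 0.869 from 1 to 5 kb, 0.962 from 5 to 20 kb and 1.17 (1.14 to 1.19) above 20 kb. The median intron that held a site measured 5130 nt in WT, 6601 nt in ΔZF1 and 7949 nt in noXL. Order in the gene made little difference, with 0.974 in first, 0.957 in inner and 0.936 in last introns. Soft-masked repeats held 25.2% of WT, 23.0% of ΔZF1 and 26.7% of noXL intron sites, a ΔZF1 to WT ratio of 0.867.

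Gene length gave the same picture. In genes up to 10 kb the intron share was 15.2% in WT and 21.2% in ΔZF1, in genes of 30 to 100 kb 34.3% and 46.2%, and in genes of 100 to 300 kb 39.9% and 56.0%. Genes over 300 kb took 3.05% of WT and 4.56% of ΔZF1 genic sites. Most of the difference nevertheless lay inside genes and not in the choice of genes. Over 5121 genes with at least 20 sites, the intron share differed by 13.2 points, of which 11.1 came from a different share within genes and 2.12 from the different weight of genes. Of 2111 genes with at least 20 sites in each list, 1667 (79.0%) had a higher intron share in ΔZF1, 434 a lower one and 10 an equal one. The median share over these genes was 31.5% in WT and 45.8% in ΔZF1, and the median difference within a gene was 10.9 points.

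Chromosome 11 stood apart from every other autosome and from X. Chromosome Y had few sites, 173 in introns in WT, 52 in ΔZF1 and 15 in noXL, an intron ratio of 0.301 (0.221 to 0.409), and is left out of the ranges below. Chromosome 11 had 16126 exon sites in WT, 6699 in ΔZF1 and 5257 in noXL, and 10336, 4684 and 6388 intron sites. Its intron ratio was 0.453 (0.438 to 0.469), whereas the other 19 chromosomes lay between 0.837 on X and 1.19 on chromosome 18 with a median of 1.07. Its exon ratio was 0.415 (0.404 to 0.427), against 0.519 to 0.576 elsewhere with a median of 0.550. The intron share of chromosome 11 was 39.1% in WT and 41.1% in ΔZF1, a difference of 2.09 points (1.01 to 3.17), while on the others the difference ran from 9.22 to 18.1 points. In introns of chromosome 11 ΔZF1 had 0.733 times the noXL sites and WT 1.62 times. Without chromosome 11 the difference between the lists was 14.7 points (14.3 to 15.0). In ESCs of the same clones its ratios were 0.260 in introns and 0.413 on exons, against 0.531 in both for the rest of the genome. With 1 clone for each genotype, what is peculiar to a clone cannot be separated from what the deletion does. This limit holds for every ΔZF1 to WT difference given here, on chromosome 11 and elsewhere, and for every gene named. The genes of chromosome 11 are counted separately below.

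**Figure D3:**
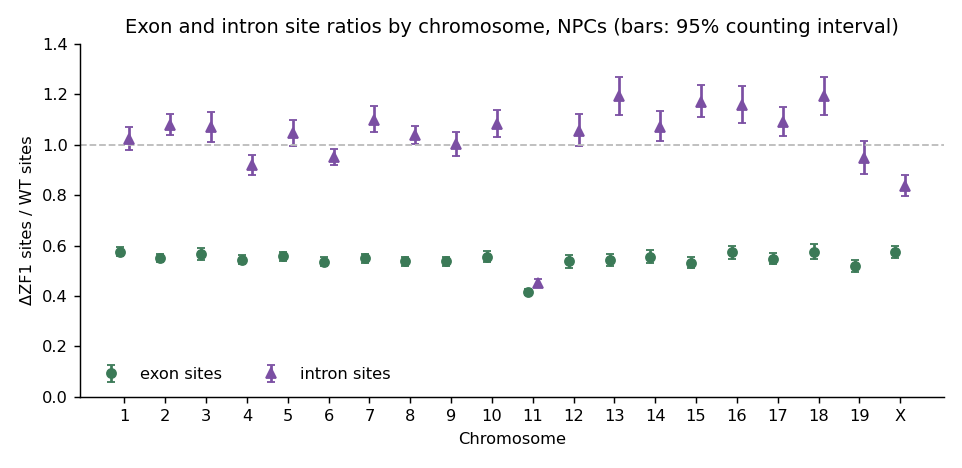
ΔZF1 to WT ratio of exon sites and of intron sites for each chromosome from 1 to 19 and X, with 95% counting intervals. Chromosome 11 had 0.415 on exons and 0.453 in introns, below the ranges of 0.519 to 0.576 and 0.837 to 1.19 of the other chromosomes.

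Intron sites were then compared gene by gene. The scaled log2 ratio is log2 of ΔZF1 plus 1 over WT plus 1 sites, minus the same for the list totals of intron sites, so that 0 is the ratio of the lists, and genes with at least 20 intron sites in both lists together were counted. Off chromosome 11, 210 of 1450 genes (14.5%) had a scaled ratio of at least 1 and 101 (6.97%) of at most −1, with a median of −0.02. Scaled instead to all genic sites, 419 were past 1 and 29 past −1, with a median of 0.49. That scaling adds 0.51 to every intron value given here and takes 0.31 from every exon value. At the limit, Map2k1 lay inside with 1.01 and Laptm4a outside with 0.999, and at the lower limit Stk11 lay inside with −1.01 and Abcc5 outside at −0.997. The 210 genes held 2547 intron sites in WT, 8291 in ΔZF1 and 2988 in noXL. On exons the same genes held 6596, 4172 and 2471, fewer in ΔZF1 than in WT. Of 181 such genes that also had 20 exon sites, 17 (9.39%) were past 1 on exons and 5 (2.76%) past −1, against 3.54% and 6.24% of the 1299 genes tested on both parts. The 101 genes of the low side held 4227, 1407 and 2028 intron sites.

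Long genes were more frequent on the high side than among all genes tested. Of the 210 genes 104 (49.5%) spanned over 100 kb, against 303 (20.9%) of the 1450. In genes over 300 kb 27 of 53 had a scaled intron ratio of at least 1 and 3 of at most −1, with a median of 1.01. In genes up to 10 kb none of 75 passed 1 and 17 passed −1, with a median of −0.34. Exon ratios of the same length classes differed less, with medians of 0.21 and −0.02.

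**Figure D4:**
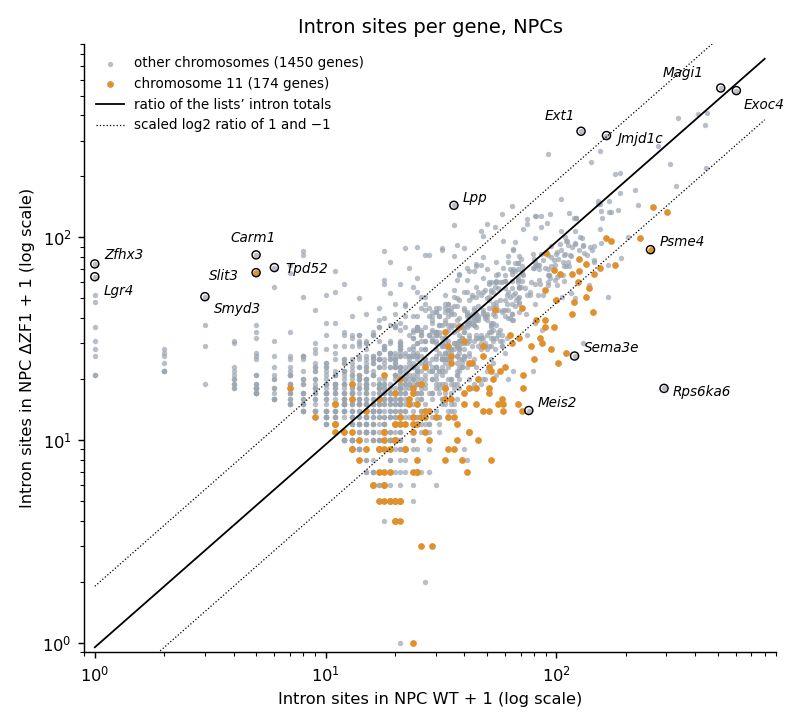
Intron sites for each gene in NPC WT and NPC ΔZF1, each plus 1, on log axes, with chromosome 11 in orange. The solid line is the ratio of the intron totals and the dotted lines are scaled log2 ratios of 1 and −1, and 92 of the 174 genes of chromosome 11 lay on or below the lower one.

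The highest intron ratios belonged to genes with next to no WT intron site. Zfhx3, a homeodomain zinc-finger transcription factor of 1019 kb (chromosome 8, 107942644 to 108961630, plus strand), had 0 intron sites in WT, 73 in ΔZF1 and 15 in noXL, at least 24.3-fold higher in ΔZF1 than a floor of 3 sites. They lay in 5 introns, the busiest 1 kb held 8.22% of them, and exon sites numbered 10, 43 and 24. Lgr4, a receptor for R-spondins in the Wnt pathway, had 0, 63 and 5 intron sites, at least 21-fold higher by the same floor. Its exons had 41, 18 and 11 sites, a scaled log2 ratio of −0.25.

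Several of this group code for enzymes or trafficking proteins. Carm1, an arginine methyltransferase of histones and other proteins, had 4 intron sites in WT, 81 in ΔZF1 and 6 in noXL, a ratio of 20.2 (7.71 to 53.2). Smyd3, a lysine methyltransferase, had 2, 50 and 5, a ratio of 25.0 (6.70 to 93.2). Tpd52, a coiled-coil protein of vesicle traffic, had 5, 70 and 6, a ratio of 14 (5.81 to 33.7). In the ESC lists, made with the same clones, Carm1 had 7 intron sites in WT and 138 in ΔZF1, and Tpd52 24 and 252. Zfhx3 had no intron site in either ESC list, and Smyd3 had 54 in WT and 17 in ΔZF1. Whether the high ratios of Carm1 and Tpd52 in both cell states belong to the clone or to the deletion was not tested.

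The lowest intron ratios were found at Rps6ka6, which encodes a ribosomal S6 kinase (chromosome X, 111388192 to 111537959, minus strand). It had 292 intron sites in WT, 17 in ΔZF1 and 131 in noXL, a scaled log2 ratio of −3.95, and WT had 17.2 times (10.6 to 27.9) as many as ΔZF1. Its exon sites numbered 71, 26 and 9. Meis2, a homeodomain cofactor of HOX proteins, had 75, 13 and 38 intron sites (scaled −2.37). Sema3e, a secreted guidance cue, had 119, 25 and 76 (−2.13), and Sfmbt2, an imprinted Polycomb-related gene, had 129, 29 and 53 (−2.04). Hat1, which acetylates newly made histones, had 78, 21 and 46 (−1.77). In all 5 genes, chosen for their low ratios, the ΔZF1 intron count was below the noXL count. Of the 1450 genes tested off chromosome 11, 1145 had more intron sites in ΔZF1 than in noXL. Of the 101 low ones, 32 did.

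Chromosome 11 genes lay almost wholly on the low side. Of 174 tested, 92 (52.9%) had a scaled intron ratio of at most −1 and 2 (1.15%) of at least 1, with a median of −1.05. Scaled to all genic sites, 44 were past −1 and 6 past 1, and the median was −0.54. Tnrc6c, a scaffold of microRNA silencing, had 51 intron sites in WT, 7 in ΔZF1 and 21 in noXL. Nlk, a kinase that acts on Wnt transcription factors, had 70, 13 and 44, and Med13 of the Mediator kinase module had 45, 9 and 35. Slit3, the secreted ligand of Robo receptors, was an exception with 4, 66 and 10, a ratio of 16.5 (6.25 to 43.6). Acaca, which makes malonyl-CoA, had 32, 33 and 32, and Itga3, a laminin-binding integrin subunit, had 37, 35 and 14. The 92 low genes held 5355 intron sites in WT, 1799 in ΔZF1 and 3232 in noXL. In the ESC lists 85 of them had 20 intron sites, of which 54 (63.5%) were at most −1 and 0 at least 1, against 52.9% and 0.645% of the 155 chromosome 11 genes tested in both cell types.

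On exons 223 of 3998 genes off chromosome 11 (5.58%) had a scaled ratio of at least 1 and 251 (6.28%) of at most −1, with a median of 0.09. Scaled to all genic sites the counts were 78 and 435, since the exon total of ΔZF1 was the lower. Itgb1, the β1 subunit of integrins that bind laminin and fibronectin (chromosome 8, 128685654 to 128733200, plus strand), had the lowest ratio, with 62 exon sites in WT, 4 in ΔZF1 and 1 in noXL. WT had 15.5 times (5.86 to 41.0) as many. Its introns held 67, 74 and 50 sites, and its intron share was 51.9% in WT and 94.9% in ΔZF1.

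Low exon ratios were also found at the following genes. Mest, an imprinted gene of the hydrolase fold, had 47 exon sites in WT, 5 in ΔZF1 and 4 in noXL. Trim28, the corepressor of KRAB zinc-finger proteins, had 46, 6 and 3. Rpn2, a subunit of the oligosaccharyltransferase, had 48, 7 and 2 on exons and 6, 20 and 8 in introns, mostly exonic in WT and mostly intronic in ΔZF1. Greb1l had 63, 9 and 11 on exons.

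Zfhx3 also had the highest exon ratio, a scaled log2 ratio of 2.90. D10Wsu102e had 41 exon sites in WT, 80 in ΔZF1 and 30 in noXL, a scaled log2 ratio of 1.85. Palld, an actin-bundling protein, had 20, 31 and 7 (1.51), and its introns 2, 17 and 1. Tarbp1, an RNA methyltransferase homologue, had 21, 29 and 11, Npat, an activator of histone gene transcription, 21, 29 and 8, and the forkhead factor Foxn3 22, 30 and 25. On chromosome 11, 65 of 426 genes (15.3%) had a scaled exon ratio of at most −1 and 1 (0.235%) of at least 1, with a median of −0.23. The low count depended on the settings: it was 4 of 128 with at least 50 sites, where 38 of 1172 were low off the chromosome, 105 of 426 with genic scaling and 268 without scaling. P4hb, a protein disulphide isomerase, had 46, 7 and 2 exon sites, and the lysosomal glucosidase Gaa had 43, 9 and 12. The proteasome activator Psme3 had 27, 27 and 7, among the highest of the chromosome. Podxl, a sialomucin of the apical membrane, had 43, 29 and 11 exon sites and 3, 3 and 1 in introns.

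The 13.4 points were spread over many genes. Each gene's intron sites were taken as a share of the genic sites of the list, and ΔZF1 minus WT is the number of points the gene adds. A total of 4644 genes added 18.0 points and 2125 took 4.61 in the opposite direction, and the 10 that added most gave 1.11 points together. Ext1, which polymerises heparan sulphate (chromosome 15, 53064038 to 53346159, minus strand), added the most with 0.162 points. It had 127 intron sites in WT, 333 in ΔZF1 and 91 in noXL, a scaled log2 ratio of 1.46 (1.17 to 1.76), beside 22, 18 and 5 on exons. Jmjd1c, of the JmjC histone demethylase family, had 164, 317 and 121 intron sites, and Dst, a giant linker of cytoskeletal filaments, had 153, 265 and 91, in 44 introns in ΔZF1 and 25 in WT. Lpp, a zyxin-like protein of focal adhesions, had 35, 143 and 51 intron sites, a scaled log2 ratio of 2.07 (1.57 to 2.63).

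Other genes that added points had many intron sites in both lists and scaled ratios near 0. Magi1, a scaffold of tight junctions (chromosome 6, 93675455 to 94283917, minus strand), had 515 in WT, 545 in ΔZF1 and 262 in noXL, a scaled log2 ratio of 0.15 (−0.02 to 0.33). Exoc4, a subunit of the exocyst, had 602, 529 and 340 (−0.11, −0.28 to 0.05). Grip1, a PDZ scaffold of glutamate receptors, had 412, 406 and 159 (0.05), the sites of WT and of ΔZF1 all in 1 intron. Etl4 had 335, 386 and 145 (0.28). The RNA-binding protein gene Rbpms had 451, 412 and 257, and Ankrd11, a chromatin regulator, 441, 358 and 282. In ESCs the same clones gave Magi1 374 intron sites in WT and 61 in ΔZF1, and Exoc4 844 and 268, whereas Rbpms had 204 and 193 and Ankrd11 719 and 397.

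Among the genes that took most was Psme4, the proteasome activator PA200, with 255, 86 and 163 intron sites in WT, ΔZF1 and noXL. Kansl1, a scaffold of the NSL acetyltransferase complex, had 302, 132 and 223. Grb10, an imprinted adaptor of growth factor receptors (chromosome 11, 11930508 to 12038683, minus strand), had 230, 98 and 131, a scaled log2 ratio of −1.15 (−1.50 to −0.82). The helicase Helz had 143, 42 and 80, and the neuronal actin scaffold Ppp1r9a 190, 78 and 116. A count below WT follows from the way these genes were chosen, and in all 5 ΔZF1 was also below noXL. Psme4, Kansl1, Grb10 and Helz lie on chromosome 11, where all ΔZF1 intron sites together were 0.733 times those of noXL.

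Gene functions were described with 25 lists of 1044 genes, of which 896 had a site. The lists held 18.1% of WT genic sites and added 2.46 of the 13.4 points. Ratios of summed sites below run over all members, chromosome 11 included, and are read against 0.536 for all exon sites and 0.951 for all intron sites. Scaled medians refer to members off chromosome 11 with at least 20 sites, and are read against 0.09 on exons and −0.02 in introns. Counts of such members past the limits are read against all genes tested, of which 5.58% were high and 6.28% low on exons, and 14.5% high and 6.97% low in introns.

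Apart from histones, ribosomal protein, chaperone and glycolysis genes had the lowest exon ratios of the lists. The 80 ribosomal protein genes had 1223 exon sites in WT, 281 in ΔZF1 and 173 in noXL, a ratio of 0.230 (0.202 to 0.262), and 815, 551 and 320 intron sites, a ratio of 0.676. Their intron share was 40.0% in WT, 66.2% in ΔZF1 and 64.9% in noXL. On exons 13 of 30 members had a scaled ratio of at most −1 and 0 of at least 1, with a median of −0.78. These genes have many processed copies in the genome, so how reads were divided among copies is uncertain. Chaperonin and heat shock genes, which fold proteins, had 852, 216 and 113 exon sites, a ratio of 0.254 (0.218 to 0.294), and 10 of 21 members were at most −1. The endoplasmic reticulum chaperone Hsp90b1 had 46, 8 and 2 on exons and 19, 22 and 8 in introns. Glycolysis genes had 400, 130 and 69 exon sites, a ratio of 0.325. Slc2a3, a glucose transporter, had 35, 2 and 1 exon sites beside 63, 38 and 28 in introns, and Pkm, the last enzyme of glycolysis, had 34, 6 and 5 beside 68, 56 and 29.

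The list of actins, tubulins and their partner proteins, which its myosin, actinin and filamin members dominate, had 704 exon sites in WT, 242 in ΔZF1 and 113 in noXL, a ratio of 0.344, and 346, 404 and 167 intron sites, a ratio of 1.17. Without Actn4 the intron ratio was 1.03 (0.880 to 1.204). The list's intron share was 33.0% in WT and 62.5% in ΔZF1, the widest gap of the 25 lists at 29.6 points. The nonmuscle myosin Myh9 had 102, 30 and 13 exon and 104, 153 and 38 intron sites, and the crosslinker Actn4 had 59, 15 and 7 and 39, 88 and 38. Respiratory chain genes had an exon ratio of 0.372, though the median of 15 members was 0.02, and translation factors 0.407, the latter with 5 of 31 members at most −1, and the initiation scaffold Eif4g1 had 85, 20 and 4 exon sites. Proteasome genes had 0.438 on exons, and replication fork, nucleolar and HECT and UBR ubiquitin ligase genes had 0.509, 0.533 and 0.558, nearer to all genes. Replication-dependent histone genes, which have next to no introns, had 164, 30 and 24 exon sites, a ratio of 0.183.

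Small GTPase regulators, axon guidance, synaptic and neuronal adhesion, and basement membrane and matrix genes had the highest intron ratios of the lists. Regulators of small GTPases had 175 intron sites in WT, 394 in ΔZF1 and 256 in noXL, a ratio of 2.25 (1.88 to 2.69), and their intron share was 20.2%, 46.5% and 37.3%. Of 9 members tested in introns, 6 had a scaled ratio of at least 1, against 14.5% of all genes tested, with a median of 1.36. These were long genes, 7 of the 9 over 100 kb, and 30.8% of all tested genes of 100 to 300 kb and 50.9% of those over 300 kb had such a ratio. Gene length was also high in the lists that follow, with 8 of 11 adhesion and 13 of 17 polarity genes tested in introns over 100 kb, and its part in their ratios was not tested. Arhgap35, which turns small GTPases off, had 8, 23 and 14 intron sites, and Trio, an exchange factor that turns them on, had 13, 30 and 14. Axon guidance genes had 182, 270 and 145 intron sites, a ratio of 1.48 (1.23 to 1.79). Sema3e alone held 119 of these sites in WT and 25 in ΔZF1, and without it the list had 63 and 245, a ratio of 3.89. Without Efna5, an ephrin with 7 and 85 intron sites, the ratio was 1.06, and 4 members off chromosome 11 were tested, so the list's value rested on a few genes. Synaptic and neuronal adhesion genes had 587, 770 and 439, a ratio of 1.31, against 880 and 357 exon sites in WT and ΔZF1, a ratio of 0.406. The protocadherin Fat1 had 146, 27 and 9 exon but 46, 106 and 40 intron sites, and the receptor phosphatase Ptprg had 80, 127 and 64 in introns.

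Basement membrane and matrix genes had 1629, 742 and 310 exon sites, a ratio of 0.455, and 398, 493 and 207 intron sites, a ratio of 1.24. Hspg2, the heparan sulphate proteoglycan perlecan, had 268, 76 and 33 on exons and 37, 64 and 15 in introns, and the laminin chain gene Lama5 had 14, 41 and 11 in introns. Polarity and junction scaffolds added more points than any other of the lists, 0.59, with 1916, 2178 and 1217 intron sites, a ratio of 1.14. Of 17 members tested in introns 7 were at least 1 and 0 at most −1, with a median of 0.59. Afdn, the adherens junction protein afadin, had 63, 142 and 47 intron sites, and the polarity protein gene Pard3 had 178, 205 and 114.

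**Figure D5:**
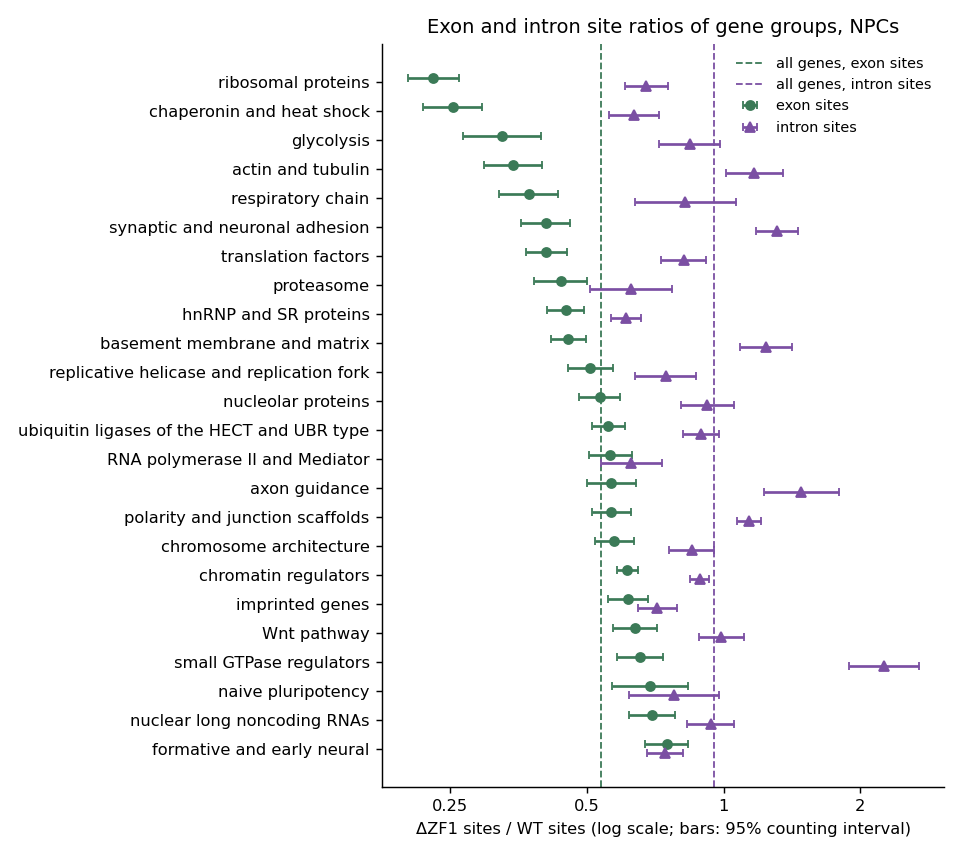
ΔZF1 to WT ratio of summed exon sites and of summed intron sites for each gene group (log scale), with 95% counting intervals, dashed lines for all genes (0.536 on exons, 0.951 in introns) and histone genes left out for want of a ΔZF1 intron site. Ribosomal proteins had 0.230 on exons and small GTPase regulators 2.25 in introns.

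Among genes of RNA processing and chromatin, those for RNA-binding proteins had the lowest intron ratio of the lists. hnRNP and SR proteins, which bind nascent RNA and guide splicing, had an exon ratio of 0.450 and an intron ratio of 0.609, from 1810 intron sites in WT and 1103 in ΔZF1, and 8 of 33 members tested in introns were at most −1, against 6.97% of all genes tested, and 0 at least 1. Hnrnpc, which binds uridine tracts, had 105 intron sites in WT and 50 in ΔZF1. Chromatin regulators had 0.614 and 0.885, with 5 of 42 members at least 1 in introns and 1 at most −1, against 14.5% and 6.97% of all genes tested. In the chromosome architecture list, which includes cohesin and its loaders, the ratios were 0.575 and 0.850. Its member Stag1, a cohesin subunit, had 44, 71 and 55 intron sites, whereas the cohesin regulator Pds5a had 144 in WT and 75 in ΔZF1. RNA polymerase II and Mediator genes had an intron ratio of 0.627, and 7 of the 28 lie on chromosome 11, where all 5 tested in introns were at most −1, against 52.9% of all genes tested on that chromosome. One of them, the elongation kinase gene Cdk12, had 58 intron sites in WT and 14 in ΔZF1. Of the 5 members tested in introns off chromosome 11, 1 was at least 1 and 0 at most −1, with a median of 0.35.

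Developmental, imprinted and noncoding gene lists differed in the gap between exons and introns. Formative and early neural genes had an exon ratio of 0.749 and an intron ratio of 0.742, and their intron share differed by −0.21 points (−3.66 to 3.22). Individual members went both ways, as Zfhx3 and Meis2 above show, and Igf1r, the receptor of insulin-like growth factors, had 36, 91 and 25 intron sites. Naive pluripotency genes had 0.688 and 0.778, a difference in intron share of 3.00 points (−4.22 to 10.2). Wnt pathway genes had 0.639 and 0.988, a difference of 10.9 points (6.90 to 14.8), and nuclear long noncoding RNAs 0.694 and 0.936, a difference of 7.45 points (3.28 to 11.6). Imprinted genes had 0.615 and 0.714. Kcnq1ot1, the noncoding RNA of an imprinted domain, had 205 exon sites in WT, 222 in ΔZF1 and 90 in noXL, a scaled log2 ratio of 1.01. It belongs to the imprinted and the noncoding list, whose exon ratios without it were 0.496 and 0.528.

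In the ESC lists of the same clones the mutant's intron share was not higher. There introns held 38.5% of WT genic sites (38.4 to 38.7) and 37.2% of ΔZF1 genic sites (37.0 to 37.4), a difference of −1.37 points (−1.62 to −1.12). Off chromosome 11 the ESC difference was −0.003 points (−0.27 to 0.26), and on it −11.2 points (−12.1 to −10.4). The ΔZF1 to WT ratio in ESCs was 0.519 on exons and 0.489 in introns. Of the 210 genes high in NPC introns, 96 had 20 intron sites in ESCs, of which 16 (16.7%) had a scaled ratio of at least 1 and 14 (14.6%) of at most −1, with a median of 0.06. Of all 1149 NPC-tested genes off chromosome 11 that were tested in ESCs, 8.36% and 5.66% did. How the difference depends on cell state was not tested, since each state had 1 list for each genotype.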

How the data were processed

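NPC crosslink sites were taken from 3 deposited lists, which the authors made by trimming with Flexbar, aligning to mm10 with STAR, removing duplicate molecules with UMI-tools, merging the libraries of a group and calling sites with PureCLIP. Versions were not given in the sources used here. Each site carries the score that the authors' PureCLIP run gave it, a measure of how strongly reads stop there, and the lists were used as deposited, without the study's later step of reproducible peaks. Read depth is unknown. The ESC lists were made in the same way and stand beside single results.

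Sites were assigned to exons or introns of the GENCODE basic annotation on the same strand with Python 3.11.15, numpy 2.4.6, pandas 2.3.3 and pysam 0.24.0, and plotted with matplotlib 3.10.9. A base that is an exon in any transcript counted as exon. Gene ratios used a pseudocount of 1, a minimum of 20 sites in both lists together and a limit of 1 on the log2 scale, and were scaled to the exon or intron total of each list. Shares have 95% Wilson intervals. Against 0 sites a floor of 3 was used. Chromosome names and lengths were checked against the mm10 reference, and the counting was tested on simulated data. The members and gene lists were chosen with earlier results of these data known.

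Named genes were, off chromosome 11, the 6 highest and 6 lowest ratios with at least 50 sites on exons or in introns, and the 3 of each on chromosome 11. Added to these were the 10 genes that add most and the 10 that take most, the 8 with most ΔZF1 intron sites, Ctcf, Podxl, Grb10, Magi1 and Exoc4, and the 5 members of each list with most sites. Genes with over 50% of their sites shared with another gene and predicted genes were left out. Alternatives were other minimums, pseudocounts, scalings, score cut-offs, site merging, base and background filters, list length and annotation. Results for a few genes that the rule names are not reported here.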

Additional observations from a re-analysis of the deposited data

Results flagged for a closer look

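The intron share was higher in ΔZF1 than in WT in NPCs, by 13.4 percentage points, and lower in ESCs, by −1.37 points, although the clones were the same. Off chromosome 11 the ESC difference was −0.003 points (−0.27 to 0.26). The difference between the cell states was not tested, because each state had 1 list for each genotype. Mest, the imprinted gene with few ΔZF1 exon sites in NPCs, had a scaled intron log2 ratio of −1.14 in NPCs and 0.91 in ESCs, and this difference was not tested either.

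Mitochondrial sites, which enter no gene comparison above, numbered 123 in WT, which is 0.0513% of that list (0.0430 to 0.0612), against 0.0214% of noXL (0.0143 to 0.0322), or 23 sites. The ΔZF1 list had 13, or 0.00820%.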

How the results depend on the processing

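None of the alternatives reversed the sign of the intron share difference, of its part within genes or of a named gene's ratio past the limit. The intron share difference of 13.4 points, and in the same order the 11.1 points within genes, became 19.6 and 17.9 with a score minimum of 3.21, 15.8 and 13.5 with lists cut to 158490 sites each, and 14.8 and 12.3 with uridine sites only. Without sites within 50 nt of a noXL site they were 14.5 and 11.98, without chromosome 11 14.7 and 12.3, and with sites within 8 nt merged 11.98 and 9.71. With the comprehensive annotation, an alternative chosen after seeing the data, they were 12.6 and 10.2. Counts of genes past the limit off chromosome 11 depended on the settings more. The 223 high exon genes were 144 with the score minimum, 132 at uridines, 459 and 31 with at least 10 or 50 sites, 78 with scaling by genic sites and 21 without scaling. The 251 low exon genes were 131 at uridines, 158 with merged sites, 569 and 38 with at least 10 or 50 sites, 435 with genic scaling and 1533 without scaling, where the median gene lay at −0.81. The median gene lay at 0.09 on exons and −0.02 in introns in the values reported, and at −0.22 and 0.49 with genic scaling. Without sites near noXL the exon counts were 205 high and 193 low, so the low side was no longer the larger. The 210 high intron genes were 112 with the score minimum, 125 at uridines, 441 and 61 with at least 10 or 50 sites and 419 with genic scaling. The 101 low intron genes were 64 with the score minimum, 197 and 29 with at least 10 or 50 sites and 29 with genic scaling. The remaining 45 of 80 summary values stayed within 1.5 times the count or within the counting interval. For 41 ratios of named genes past the limit, 577 of 597 values stayed past it and 20 lay within it in the same direction. Apart from the settings whose construction changes the number of genes counted or the scale, the cause of these shifts was not tested. Leaving out the member that raised or lowered a list's ratio most, also chosen after seeing the data, moved only the intron ratio of axon guidance genes by over 1.5 times. No paired analysis was possible because each genotype had 1 list of sites from merged libraries, which also kept single libraries from being left out. Read depth limits every count and is unknown.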
